A study of Saccharomyces cerevisiae with 7 samples.

Results

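RNA bound to newly made yeast ribosomes lacking Rps26 was compared with RNA bound to ribosomes from a strain with both RPS26 genes intact. The comparison takes 4 of the 7 libraries of the series, chosen by their group: the 3 libraries of Minus_Rps26 and the single library of Rps3_TAP. Both groups were purified on beads through a TAP tag on Rps3, a small-subunit ribosomal protein, and the libraries counted ribosome-bound RNA after removal of ribosomal RNA. The series concerns mRNA-specific translation and sequence around the start codon, as its title says.

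The Minus_Rps26 strain is BY4741 (S288C) with HisMX6::pGAL1-Rps3, NatMX6::pGAL1-Rps26A and Rps26B::KanMX6, and it carries the plasmid pCM189--Rps3-TAP. The GAL1 promoter is on in galactose and off in glucose, so RPS3 and RPS26A were switched off by the move to glucose and RPS26B was absent throughout. These cells grew in YPGal (galactose) with 0.2 µg/ml doxycycline, which represses the plasmid's promoter, and were then moved to YPD (glucose) without it, where they stayed for 4 h. Ribosomes assembled after the shift are the ones that can carry the tag. The Rps3_TAP strain is BY4741 (S288C) with Rps3-TAP::HisMX6 and grew to mid-log phase in YPD, with no galactose phase in its label. Cultures of both groups received 100 µg/ml cycloheximide, an inhibitor of elongation, and lysates were held on IgG beads for 2 h before elution with TEV protease. Strain, carbon source history, doxycycline, plasmid and loss of Rps26 change together between the groups and cannot be told apart. The same holds for the source of tagged Rps3 and for the age of tagged ribosomes. Only in Minus_Rps26 is tagging limited to ribosomes assembled after a shift. No library of total RNA was used here, so a change in the level of an mRNA and a change in its binding to ribosomes cannot be told apart either. The libraries measure RNA, and the Rps26 content of the ribosomes is not measured by them.

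Rps26 sits at the exit of the mRNA channel of the small subunit, beside the bases that precede the start codon. It joins the subunit late in assembly and is delivered by its chaperone Tsr2. The bases just upstream of the AUG, the Kozak context, affect how often a scanning ribosome starts there, and an A at position -3 is typical of strongly translated yeast genes.

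The start contexts of some genes described further on, called lower or higher, are shown because they are the sequence that the question of the series turns on. Each is the stretch of 20 bases before the start codon from the authors' deposited column, 5′ to 3′, with positions -4 to -1 in capitals. Its final base was read as -1, which puts A at -3 in 60.9% of 5587 genes. The first 6 belong to genes lower in Minus_Rps26 and the last 6 to genes higher there.
RPL41B: tcatatcgacttaattCCAA
TDH3: aacacacataaacaaaCAAA
ADH1: aatcaactatctcataTACA
ASC1: taaagtaaataaagtgAAAA
MDH2: atcataaaagttatagTAAC
HTA2: aagagcaaatttaataTATA
FAL1: aaaaaaaaaactcattAGAC
UTP6: cacatcaccgatttctAATA
NOB1: tttctttaaaggagcaTAAT
SMP1: ttcaaaaaaatttctgCTAA
HKR1: gaaacagagaatgtatAAAG
RIM8: atcggtagcattgaccAAAC
Contexts with an A at -3 stand in both sets, as in TDH3 and RIM8, and contexts without one stand in both sets too, as in RPL41B and FAL1. These are examples from called genes, and with A at -3 in 60.9% of genes both kinds are likely in any such set.

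The Minus_Rps26 libraries held 11590456, 17136240 and 21405499 counts over 6341 features, and Rps3_TAP held 16145589. Cytosolic ribosomal protein genes took 17.6% to 23.5% of nuclear protein-coding counts in Minus_Rps26 and 35.7% in Rps3_TAP. The share of non-coding RNA was 13.4% of counts in Rps3_TAP and lower in each Minus_Rps26 library, with 6.98% in replicate 1, 2.37% in replicate 2 and 1.66% in replicate 3. Mitochondrially encoded genes took 0.294% in replicate 1 of Minus_Rps26, which stood apart from 0.0404% and 0.0421% in replicates 2 and 3 and 0.0273% in Rps3_TAP. Across features, log2 CPM of the Minus_Rps26 libraries correlated at 0.957 to 0.975 with each other and at 0.866, 0.834 and 0.792 with Rps3_TAP for replicates 1, 2 and 3, a description over genes of 4 libraries. The design text calls the Minus_Rps26 libraries biological replicates. Rps3_TAP has 1 library, so the p-values below rest on the spread within Minus_Rps26 and assume that Rps3_TAP varies like it. Fits of all 7 libraries also use the spread within Plus_Rps26, the untagged class of ribosomes from the same cultures.

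The engineered genes came first as a check of the labels. RPS26A (YGL189C, sacCer3 chromosome VII, 148229 to 148588) had 740, 612 and 1075 counts in replicates 1, 2 and 3 of Minus_Rps26 and 100566 counts in Rps3_TAP. For RPS26B (YER131W, chromosome V, 423952 to 424311) the counts were 13, 15 and 17 against 14293. Both genes of Rps26 lay far below Rps3_TAP in every Minus_Rps26 library. On the scale of CPM (counts relative to library size, corrected by edgeR's trimmed-mean factors over the 4 libraries), RPS26A stood at 51.6, 29.1 and 39.5 CPM against 12032 CPM, and its log2 fold change of Minus_Rps26 over Rps3_TAP was -8.23 ± 0.46 (SE; edgeR quasi-likelihood adjusted p = 3.17e-09). RPS26B was lower by a log2 fold change of -11.17 ± 0.46 (edgeR adjusted p = 4.48e-11). The 2 genes are near-identical copies, so how reads were divided between them is uncertain.

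RPS3 (YNL178W, chromosome XIV, 302680 to 303402), supplied by the plasmid in Minus_Rps26, stood at 1695, 4077 and 2350 CPM there and at 9284 CPM in Rps3_TAP. All 3 libraries lay below Rps3_TAP, with a log2 fold change of -1.78 ± 0.45 (edgeR adjusted p = 0.00546), but the call was lost with total counts alone (-0.51, adjusted p = 0.328), with the trend of fold change on gene length removed (-1.09, adjusted p = 0.0712) and with all 7 libraries in the fit (adjusted p = 0.232). URA3, the marker of the plasmid, had 1153, 740 and 1734 counts in Minus_Rps26 and 1 count in Rps3_TAP, a ratio of 484 with a 95% interval of 86.9 to 1.91e+04 that covers counting error only. LEU2 and MET17, deleted in BY4741, had 0 counts in all 4 libraries. HIS3 stood at 135, 163 and 103 CPM against 373 CPM and was called lower (-1.48 ± 0.37, edgeR adjusted p = 0.00458), a call lost with total counts alone (-0.22) and with the length trend removed (-0.72). YGL188C-A, named after its values were seen, lies 235 bases from RPS26A on the side of its promoter and had 0 counts in each Minus_Rps26 library and 261 in Rps3_TAP, at least 652-fold lower against a floor of 3 counts over the group.

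**Figure D1:**
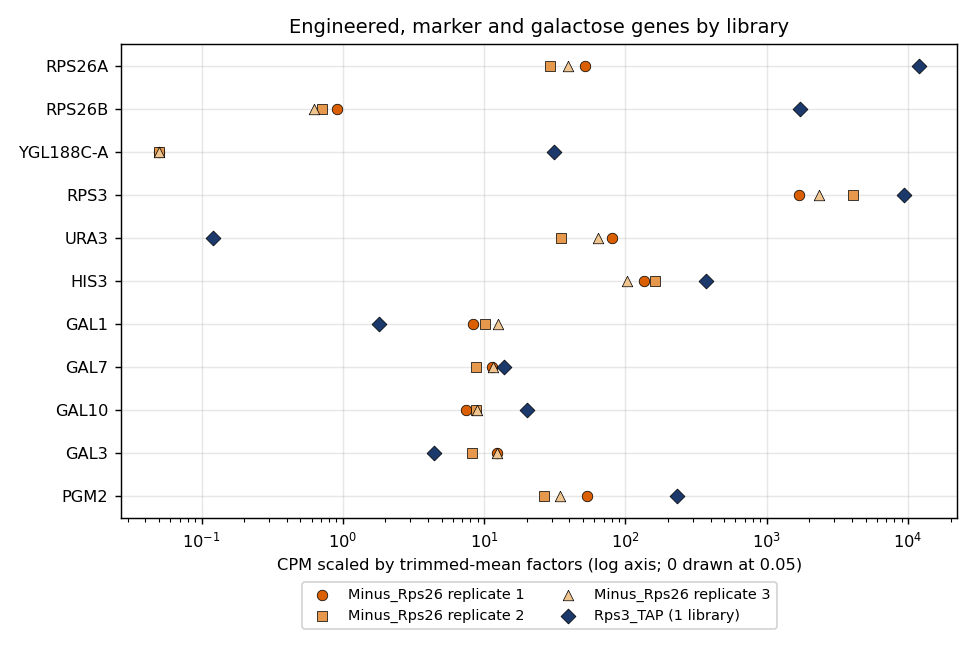
CPM (log axis, scaled by trimmed-mean factors) of the engineered, marker and galactose genes in the 3 Minus_Rps26 libraries and the Rps3_TAP library. RPS26A stands at 29.1 to 51.6 CPM in Minus_Rps26 and 12032 CPM in Rps3_TAP, while GAL7 stands at 8.79 to 13.8 CPM in all 4 libraries.

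Genes of galactose use report on the medium the cells came from. GAL1, the galactokinase gene whose promoter drives the engineered copies, stood at 8.37, 10.2 and 12.5 CPM in Minus_Rps26 and 1.79 CPM in Rps3_TAP, and it rose (log2 fold change 2.53 ± 0.71, edgeR adjusted p = 0.00961). PGM2, the main phosphoglucomutase, fell, with 53.7, 26.7 and 34.5 CPM against 233 CPM (-2.61 ± 0.38, edgeR adjusted p = 7.23e-05). GAL10, the epimerase gene, stood at 7.39, 8.75 and 8.93 CPM against 20.1 CPM. It was called lower (-1.26, edgeR adjusted p = 0.0466), but not with total counts alone (0.00), limma-voom (adjusted p = 0.0773), 7 libraries (0.156) or without replicate 2 (0.0692) or replicate 3 (0.0925). GAL3, the galactose sensor, stood at 1.30 (edgeR adjusted p = 0.1), and GAL2, GAL4, GAL7, GAL80 and GCY1 were not called either, at log2 fold changes of 0.37, 0.47, -0.38, -0.02 and -0.69. With the length trend removed 1 of the 9 genes was called higher and 2 lower, and with total counts alone 4 and 1. GAL1 and GAL10 overlap an annotated antisense RNA, and the strand setting of the counting is not given in the sources used here.

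Across the genome the 2 kinds of ribosome-bound RNA differed widely. Of 5787 features tested, 1078 (18.6%) were higher and 1281 (22.1%) lower in Minus_Rps26, 40.8% in all (edgeR quasi-likelihood test, Benjamini-Hochberg threshold 0.05). Without the fitted spread, every Minus_Rps26 library lay 2-fold or more above Rps3_TAP for 825 features (14.3%) and 2-fold or more below it for 1021 (17.6%). The split between higher and lower depends on scaling. The median log2 fold change of all features moved from 0.12 to 1.39 when library totals were the only scaling, and 3301 features (57%) were called higher and 349 (6.03%) lower. The 1078 higher calls and the 349 lower ones were shared between these scalings. Fold changes from here on are therefore relative to the typical feature, and "rose" and "fell" are used in that sense. For the lists below, total counts alone are mentioned mostly where lower calls or the call of a gene named by rule were lost. Most lists gained higher calls with total counts alone, as all features did, and only some of these counts are given. Higher were 107 of 112 assembly factors, 36 of 39 DNA repair genes, 28 of 33 nuclear pore genes and 23 of 26 Hog1 members. So were 15 of 16 late 40S assembly factors, 14 of 19 hexose genes and 12 of 21 gluconeogenesis genes. Of 56 small subunit ribosomal protein genes 0 were.

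**Figure D2:**
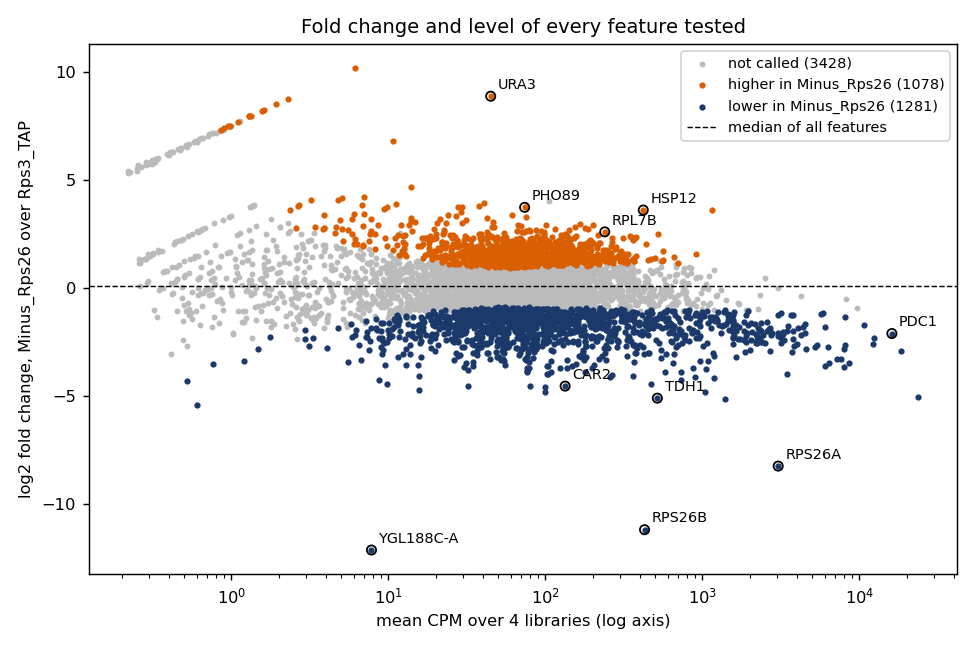
Log2 fold change of Minus_Rps26 over Rps3_TAP against mean CPM over the 4 libraries (log axis) for the 5787 features tested, with 1078 called higher in orange, 1281 called lower in blue and 3428 not called in grey. Points on the upper slanted line have 0 counts in Rps3_TAP and YGL188C-A has 0 in Minus_Rps26, where the fitted value depends on the prior count, and calls lie on both sides of the median at most levels.

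Gene length ran along with the fold change. Among 5608 nuclear protein-coding genes tested, the 1067 called higher had a median annotated span of 2058 bases and the 1230 called lower one of 705 bases, against 1233 bases for all. In the bin of shortest genes (78 to 660 bases) 3.48% were called higher and 50.8% lower, and in the bin of longest genes (2118 to 14733 bases) 44.8% were higher and 2.23% lower. The median log2 fold change went from -1.12 in the shortest of the 5 bins through -0.49, 0.05 and 0.56 to 1.02 in the longest. Each library showed the trend, from -0.89 to 0.74 in replicate 1, -1.26 to 0.94 in replicate 2 and -1.37 to 1.27 in replicate 3. With each library's trend on length removed, edgeR called 814 features higher (14.1%) and 1029 lower (17.8%), of which 533 and 790 were also called without the correction. Spans include introns and hold no UTRs. Because a trend of this size reaches every list of long or short genes, the counts with the trend removed stand beside the lists, and what part length has in any of them was not tested.

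**Figure D3:**
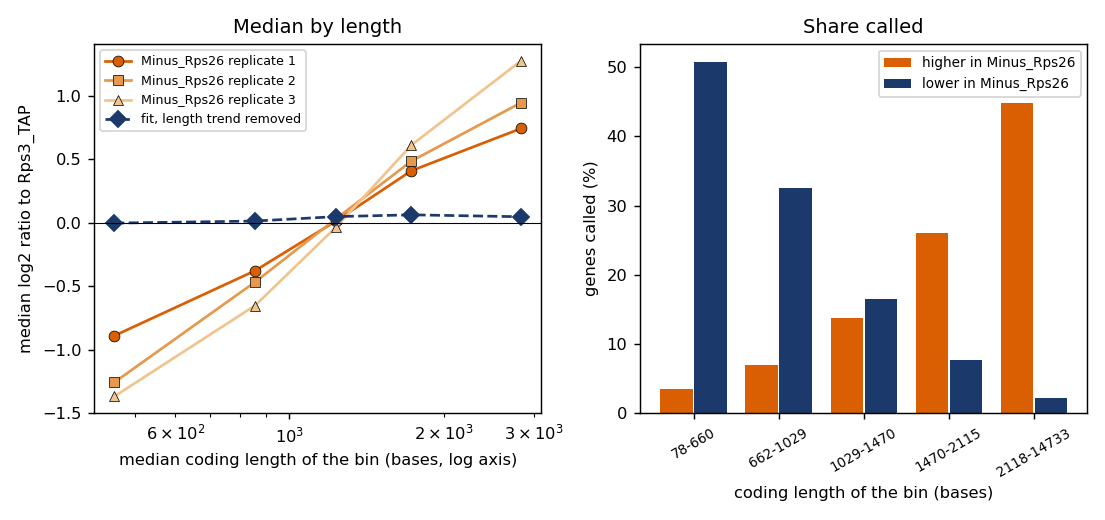
Left, median log2 ratio of each Minus_Rps26 library to Rps3_TAP in 5 equal-sized bins of coding length (bases, log axis), with the median of the fit after each library's length trend was removed. Right, percent of genes called higher and lower in each bin, from 3.48% higher and 50.8% lower in the shortest to 44.8% and 2.23% in the longest.

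Named by the size of change, at a mean level of at least 10 CPM and with engineered, marker and galactose genes left out, the top rises of protein-coding genes were those of YLR285C-A, AAD3, NCA3, IMA5, RED1, YOR302W, NFT1, PHO89, NCE103 and HSP12. AAD3, a putative aryl-alcohol dehydrogenase, went from 0.718 CPM in Rps3_TAP to 11.1, 17.6 and 26.6 CPM in Minus_Rps26, a log2 fold change of 4.67 ± 0.81 (edgeR adjusted p = 0.000314). PHO89, a plasma membrane transporter of phosphate, went from 7.18 CPM to 81.0, 134 and 72.7 CPM, 13.4-fold higher. RED1, a component of the meiotic chromosome axis, stood at 51.2, 35.8 and 60.2 CPM against 3.47 CPM. All 3 Minus_Rps26 libraries lay above Rps3_TAP for each of these 10 genes, by the rule that chose them. NCA3, linked to the mitochondrial ATP synthase, rose by 3.93, IMA5, an isomaltase, by 3.91, RED1 by 3.82 and NFT1, a transporter of the MRP type, by 3.74 on the log2 scale. YLR285C-A had 951 counts over the 3 libraries against 1 in Rps3_TAP, a ratio of 127 with a counting interval of 22.7 to 5.02e+03.

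NCE103 and HSP12 varied most between libraries among these 10. NCE103, carbonic anhydrase, stood at 163, 3048 and 1260 CPM in replicates 1, 2 and 3 against 121 CPM in Rps3_TAP, so replicate 1 lay close to Rps3_TAP. Its log2 fold change of 3.63 ± 1.06 (edgeR adjusted p = 0.0119) was 2.56 without replicate 2, and it was not called by DESeq2 (adjusted p = 0.0664). HSP12, a small membrane-protecting heat shock protein, stood at 110, 903 and 623 CPM against 44.5 CPM (3.62 ± 0.86, edgeR adjusted p = 0.00359). With all 7 libraries in the fit neither was called (adjusted p = 0.168 for NCE103 and 0.13 for HSP12). Once the length trend was removed, the log2 fold changes of the 10 rises ran from 2.61 for NFT1 to 8.15 for YLR285C-A, and each was still called.

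By the same rule, which leaves out RPS26A and RPS26B, the largest falls were those of TDH1, DAD1, PHM6, MRPL39, COA3, CAR2, YER053C-A, RIB4, HSP10 and TDH2. DAD1, a subunit of the Dam1 ring that couples kinetochores to microtubules, stood at 14.6, 14.2 and 9.73 CPM in Minus_Rps26 and 360 CPM in Rps3_TAP, a log2 fold change of -4.81 ± 0.36 (edgeR adjusted p = 3.14e-07). CAR2, the ornithine transaminase of arginine breakdown, stood at 26.2, 13.1 and 22.1 CPM against 473 CPM, 23.1-fold lower. HSP10, the mitochondrial co-chaperonin, stood at 168, 133 and 101 CPM against 2538 CPM, 19.0-fold lower. The 3 libraries lay close together and far below Rps3_TAP for these. RIB4, an enzyme of riboflavin synthesis, stood at -4.42, MRPL39 of the mitochondrial ribosome at -4.56, COA3, which acts in cytochrome oxidase assembly, at -4.53 and PHM6, a phosphate-regulated gene, at -4.73. YER053C-A, at 8.86, 0.856 and 5.33 CPM against 114 CPM, was the most variable, and stood at -5.15 without replicate 1. Without replicate 1 TDH1 stood at -5.75 and PHM6 at -5.49. All 10 were called with total counts alone, at -3.82 for TDH1 to -2.91 for TDH2, and with the length trend removed, where DAD1 stood at -3.35, HSP10 at -2.81 and CAR2 at -4.56.

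**Figure D4:**
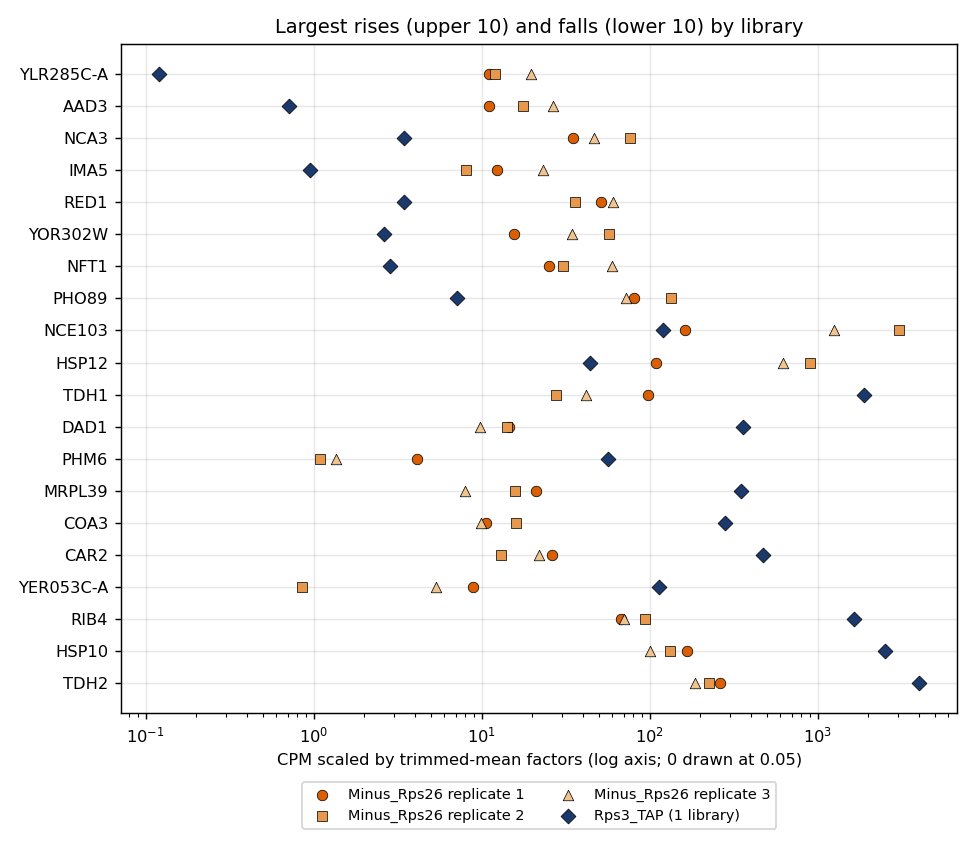
CPM (log axis, scaled by trimmed-mean factors) of the 10 called protein-coding genes with the largest rises and the 10 with the largest falls, 1 symbol per library. The Rps3_TAP symbol lies left of every Minus_Rps26 symbol in the upper 10 and right of every one in the lower 10, and NCE103 has the widest gap between libraries, 163 to 3048 CPM.

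Cytosolic ribosomal proteins, the building blocks of the ribosome itself, were the most abundant group that fell. In the small subunit list 51 of 56 genes fell and 0 rose, with a median log2 fold change of -1.75. In the large subunit list 68 of 82 fell and 1 rose, with a median of -1.82. Over all 5787 features 22.1% were called lower, and the median was 0.12. The summed level of the small subunit genes was 69468, 68277 and 54291 CPM in replicates 1, 2 and 3 of Minus_Rps26 and 263808 CPM in Rps3_TAP, so all 3 libraries lay below it. RPL41A and RPL41B, which encode the smallest ribosomal protein, fell furthest of the large subunit genes. RPL41B stood at 297, 198 and 153 CPM against 2824 CPM, 13.1-fold lower, and RPL41A at 446, 234 and 198 CPM against 3005 CPM, 10.3-fold lower. They are near-identical copies, and how reads were divided between them is uncertain, as it is for many duplicated ribosomal protein genes.

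Beyond the engineered RPS26 genes the small subunit falls were led by RPS31 (-3.44), made as a fusion with ubiquitin, and RPS12 (-3.28), both named after their values were seen. The 5 small subunit genes not called were RPS25B, RPS27A, RPS6A, RPS0A and RPS7B, at -0.95, -0.76, -0.74, -0.72 and -0.51. ASC1, the ribosome-bound homologue of RACK1, stood at 1991, 1531 and 1370 CPM against 10453 CPM, 6.41-fold lower (edgeR adjusted p = 7.92e-05). Its intron holds a small nucleolar RNA gene. RPL7B was the exception among large subunit genes, at 336, 352 and 219 CPM against 49.7 CPM (2.60 ± 0.48, edgeR adjusted p = 0.000533). Its copy RPL7A, named after its values were seen, stood at 775, 753 and 620 CPM against 1228 CPM and was not called (-0.78, edgeR adjusted p = 0.115). Both overlap a small nucleolar RNA, SNR59 in RPL7B and SNR39 in RPL7A, and share most of their sequence, so that their reads cannot be assigned with certainty.

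Removing the length trend left 36 small subunit and 52 large subunit genes lower, 0 and 1 higher, at medians of -1.09 and -1.07. With total counts alone 13 and 21 were lower, and 0 and 4 higher, around medians of -0.49 and -0.55 where the median of all features was 1.39. In a fit of all 7 libraries, the median of the small subunit list was -1.70 for Minus_Rps26 over Rps3_TAP and -0.41 for Plus_Rps26 over Rps3_TAP, and that of the large subunit list -1.77 and -0.33. Plus_Rps26 is the untagged class of ribosomes from the same cultures, collected from a 10% to 50% sucrose gradient. These 2 ratios share the Rps3_TAP library and are given side by side without a test.

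Genes for making ribosomes went the other way from the ribosomal proteins. Of 112 nucleolar and nuclear assembly factors 69 rose and 3 fell (median 1.33), where 18.6% of all features rose. FAL1, a helicase of small subunit assembly, stood at 76.0, 82.6 and 96.9 CPM in Minus_Rps26 and 11.2 CPM in Rps3_TAP, a log2 fold change of 2.92 ± 0.43 (edgeR adjusted p = 8.87e-05). UTP6, of the small subunit processome, stood at 240, 172 and 176 CPM against 27.4 CPM, 7.16-fold higher. The libraries of Minus_Rps26 were close to each other and above Rps3_TAP for both. The falls were short genes, among them SNU13 (-2.45), a protein of box C/D particles, and NOP10 (-1.80), of box H/ACA particles. NOP10 was not called with total counts alone (-0.54) or with the length trend removed (-0.44). With the trend removed 55 factors rose and 2 fell (median 0.86).

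Late factors of 40S assembly, where Rps26 is placed, rose in 7 of 16 cases and fell in 0 (median 0.99), and with the length trend removed 11 rose (median 1.39). NOB1, the nuclease that makes the 3′ end of 18S rRNA, stood at 137, 150 and 195 CPM against 40.7 CPM (1.98 ± 0.45, edgeR adjusted p = 0.00244). RIO1, an atypical kinase of the last cytoplasmic steps, stood at 116, 103 and 122 CPM against 29.4 CPM (1.95 ± 0.43, edgeR adjusted p = 0.00191). TSR2, the chaperone of Rps26, stood at 73.0, 54.4 and 76.9 CPM against 44.1 CPM, all 3 above Rps3_TAP, but was not called (0.63 ± 0.37, edgeR adjusted p = 0.189). It was called with the length trend removed (1.48, adjusted p = 0.0111) and with total counts alone (1.89, adjusted p = 0.000735).

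Other parts of the translation machinery were mixed. Of 33 initiation factors 3 rose (GCN2, TIF4632 and TIF4631) and 4 fell (SUI1, CAF20, TIF1 and CDC33). Over all features 18.6% rose and 22.1% fell. With total counts alone 21 initiation factors were higher and 1 lower, and with the length trend removed 4 and 6. GCN2, the kinase that senses uncharged tRNA, stood at 117, 142 and 231 CPM against 50.2 CPM (1.70), and SUI1, the scanning factor eIF1, at 252, 276 and 207 CPM against 1279 CPM (-2.38 ± 0.36, edgeR adjusted p = 0.00011). The rises of GCN2 and TIF4632, and the fall of CAF20, were not called with the length trend removed (0.48, 0.40 and -0.49), while SUI1 was (-0.93). CAF20 was not called with total counts alone either (-0.36). Without replicate 1, 7 initiation factors rose, against 2 without replicate 2 and 3 without replicate 3. Of 14 elongation and termination factors 6 fell and 0 rose, led by HYP2, the main eIF5A gene, at 883, 647 and 825 CPM against 5718 CPM (-2.86 ± 0.38, edgeR adjusted p = 3.12e-05) and EFB1, of eEF1B, at -1.96. EFB1 holds a small nucleolar RNA in its span, and it was not called with total counts alone (-0.69). The count of falls was 4 without replicate 2, 9 without replicate 3 and 8 with the length trend removed. With total counts alone 1 was lower and 3 higher. None of 19 cytosolic aminoacyl-tRNA synthetases was called, including ILS1 at 970, 1268 and 1201 CPM against 1467 CPM and KRS1 at 833, 1152 and 1059 CPM against 1018 CPM. With the length trend removed 10 synthetases were lower, where 17.8% of all features were. With total counts alone 10 were higher, near the share of 57% over all features.

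Glycolysis and fermentation had the lowest median of the lists apart from the engineered genes, -2.63, with 19 of 21 genes lower and 0 higher. The summed level was 39215, 37471 and 41335 CPM in Minus_Rps26 and 239672 CPM in Rps3_TAP. All 3 libraries lay far below Rps3_TAP and close to each other. TDH1, TDH2 and TDH3 encode glyceraldehyde-3-phosphate dehydrogenase and are near-identical, so that their split is uncertain. TDH1 stood at 98.3, 27.6 and 41.7 CPM against 1898 CPM (-5.09 ± 0.50, edgeR adjusted p = 2.66e-06), TDH2 at 262, 225 and 186 CPM against 4042 CPM, and TDH3, the main copy, at 2680, 3377 and 3374 CPM against 22415 CPM. Each of the 3 copies was lower in every Minus_Rps26 library.

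The next 4 genes were named after their values were seen, as abundant members of the list. ADH1, alcohol dehydrogenase, stood at 1779, 1205 and 1729 CPM against 19270 CPM, 12.3-fold lower (edgeR adjusted p = 6.33e-06). PDC1, pyruvate decarboxylase, stood at 8225, 8789 and 9515 CPM against 37868 CPM, 4.28-fold lower. FBA1, aldolase, stood at -2.58, and CDC19, pyruvate kinase, stood at -1.72. The 2 members not called were PDC5 and PDC6, other pyruvate decarboxylases, at -0.57 and 1.06. Length changed the list little, as 20 genes were lower with the trend removed (median -2.49). With total counts alone 12 were lower and 1 higher, and PDC1 (-0.83, adjusted p = 0.0721) and CDC19 (-0.45, adjusted p = 0.323) were no longer called. In the fit of 7 libraries the list's median was -2.58 for Minus_Rps26 over Rps3_TAP and -1.68 for Plus_Rps26 over Rps3_TAP, which share that library.

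Of 19 hexose transporter and glucose sensing genes tested, of 24 listed, 6 rose and 1 fell, and 2 and 1 with the length trend removed. Over all features 18.6% rose and 22.1% fell, and 14.1% and 17.8% with that trend removed. HXT2, a high-affinity transporter, stood at 237, 48 and 230 CPM against 32.7 CPM (2.39 ± 0.70, edgeR adjusted p = 0.012), with replicate 2 close to Rps3_TAP. It was not called by DESeq2 (adjusted p = 0.12), with 7 libraries (0.103) or with the length trend removed (0.0671). SNF3, the sensor of low glucose, stood at 41.0, 19.8 and 31.0 CPM against 8.85 CPM (1.79), and was not called with the length trend removed (0.92) or by limma-voom (adjusted p = 0.0634). HXT3, a low-affinity transporter named after its values were seen, stood at 648, 492 and 792 CPM against 270 CPM (1.26), not called without replicate 3 (adjusted p = 0.0667) or with the length trend removed (0.0871). HXT1 stood at 250, 220 and 351 CPM against 164 CPM and was not called (0.74). HXT8, at 7.53, 4.23 and 3.16 CPM against 18.8 CPM, was the fall (-1.93), not called with total counts alone (-0.66) or with 7 libraries (adjusted p = 0.0958).

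Of 21 genes of gluconeogenesis and other glucose-repressed carbon use 3 rose and 5 fell, also with the length trend removed, counts near those that the shares over all features (18.6% and 22.1%) would give. MDH2, the cytosolic malate dehydrogenase of gluconeogenesis, stood at 51.2, 46.4 and 57.0 CPM against 877 CPM, a log2 fold change of -4.09 (edgeR adjusted p = 9.78e-07). SIP4, an activator of gluconeogenic genes, rose from 0.957 CPM to 12.8, 8.03 and 17.7 CPM (3.74). POT1, the thiolase of fatty acid oxidation, had 132 counts over the 3 libraries and 0 in Rps3_TAP, at least 5.88-fold higher against a floor of 3 counts, and its call was lost without replicate 3 (adjusted p = 0.0519). ACS1, an acetyl-CoA synthetase, fell (-1.69), but not with total counts alone (-0.43). Of 16 citric acid cycle genes 8 fell and 0 rose, among them LSC2, of succinyl-CoA ligase, at 22.5, 23.3 and 24.4 CPM against 127 CPM, with 4 lower without replicate 2 and 8 with the length trend removed. KGD2, of 2-oxoglutarate dehydrogenase, fell (-1.71) but was not called with total counts alone (-0.45), where 1 gene of each of these lists was lower.

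Nuclear genes for mitochondria were mostly lower before the length trend was removed. Over all features 22.1% fell and 18.6% rose, and 17.8% and 14.1% with that trend removed. Of 75 mitochondrial ribosomal protein genes 43 fell and 1 rose (median -1.27, and -0.80 with the length trend removed, where 34 fell and 3 rose). RSM19 stood at 20.9, 18.4 and 13.5 CPM against 252 CPM (-3.84), and MRPL24 was the rise (1.26), not called with 7 libraries (adjusted p = 0.0984). Of 36 respiratory chain and ATP synthase genes 21 fell and 1 rose (median -1.18), but with the length trend removed 4 fell and 3 rose (median -0.24). COX5B, the hypoxic form of a cytochrome oxidase subunit, stood at 28.3, 18.5 and 18.8 CPM against 347 CPM (-3.99), CYC1, cytochrome c, at 72.5, 33.4 and 32.9 CPM against 265 CPM (-2.52), and NDE1, an external NADH dehydrogenase, rose from 87.3 CPM to 407, 234 and 238 CPM (1.75). Of the 8 mitochondrially encoded mRNAs tested, 1 was called: COX1, at 1016, 137 and 149 CPM against 80.6 CPM (2.43), a value set by replicate 1, since it stood at 0.85 without that library and was not called (adjusted p = 0.0671). Nor was it called by DESeq2 (adjusted p = 0.269), limma-voom (0.0577), with 7 libraries (0.16) or with the length trend removed (0.423). COX2, at 435, 68.5 and 77.0 CPM against 70.0 CPM, was not called (1.47), but it was without replicate 2 (adjusted p = 0.00755), without replicate 3 (0.000817) and with total counts alone (0.00913). Without replicate 2, and likewise without replicate 3, 5 of the 8 were higher and 1 lower, while without replicate 1 there were 0 and 2, and with total counts alone 5 and 0. The median of the mitochondrially encoded list, relative to all features, was 1.25 with all 3 libraries and -0.56 without replicate 1. With total counts alone 20 mitochondrial ribosomal protein genes and 4 of the respiratory chain were lower.

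Histones, which package DNA, fell in 10 of 11 cases (median -2.20), where 22.1% of all features fell. HTA2, an H2A gene, stood at 315, 132 and 177 CPM against 1713 CPM, 8.24-fold lower (edgeR adjusted p = 5.10e-05), and HHF2, an H4 gene, at 188, 100 and 123 CPM against 1095 CPM, 7.99-fold lower. Every Minus_Rps26 library lay below Rps3_TAP for these. Removing the length trend left 7 lower and 1 higher (median -0.95), and with total counts alone 6 fell and 1 rose. Histone genes come in pairs of similar copies, so the split of reads within a pair is uncertain. CSE4, the centromeric H3 variant, was the member not called (0.73).

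The Hog1 pathway, a MAP kinase cascade that answers high salt and osmotic stress, held more rises than falls: 11 of 26 members rose and 1 fell (median 0.95). Over all features 18.6% rose and 22.1% fell. SMP1, a transcription factor downstream of Hog1, stood at 81.9, 86.4 and 135 CPM against 15.9 CPM, 6.35-fold higher (edgeR adjusted p = 0.00037). HKR1, a mucin-type osmosensor, stood at 70.0, 89.3 and 128 CPM against 15.4 CPM, 6.20-fold higher (edgeR adjusted p = 0.000418). All 3 libraries lay above Rps3_TAP for both. The other 9 rises were CDC24, NBP2, PTP2, PTP3, SKO1, SLN1, SSK2, SSK22 and STE11, at 1.07 for the kinase SSK2 to 2.35 for its paralog SSK22.

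HOG1 itself stood at 151, 160 and 147 CPM against 268 CPM and was not called (-0.82 ± 0.36, edgeR adjusted p = 0.0754). The MAP kinase kinase gene PBS2 was not called either (0.86). HOG1 was called lower by DESeq2 (-0.86) and with the length trend removed (-0.89), but not by limma-voom (-0.82) or with total counts alone (0.45). The fall was YPD1, the phosphorelay protein, at 63.3, 59.5 and 48 CPM against 115 CPM (-1.01, edgeR adjusted p = 0.0246), a call lost with the length trend removed (0.07), total counts alone (0.25), 7 libraries (adjusted p = 0.0547) and without replicate 2 (adjusted p = 0.0683). The trend on length removed, 8 members rose and 2 fell (median 0.39). Without replicates 1, 2 and 3 in turn, 18, 8 and 9 members rose, where 1407, 877 and 974 of all features did. In the fit of 7 libraries the list's median was 1.00 for Minus_Rps26 over Rps3_TAP and 0.27 for Plus_Rps26 over Rps3_TAP, which share that library.

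Of 15 targets of osmotic stress 3 rose and 7 fell (median -1.03), and 2 rose and 6 fell with the length trend removed (median -0.53), where 18.6% and 22.1% of all features rose and fell. GPD1, the glycerol-3-phosphate dehydrogenase that makes the osmolyte glycerol, stood at 216, 105 and 198 CPM against 1080 CPM, 6.26-fold lower (edgeR adjusted p = 0.000107), and GPP2, the phosphatase of the next step, at 74.6, 156 and 79.4 CPM against 475 CPM (-2.20, not called with total counts alone at -0.94). ENA1, a sodium pump, rose from 2.03 CPM to 16.2, 11.4 and 26 CPM (3.13 ± 0.69, edgeR adjusted p = 0.00212), and HSP12 was also a rise of this list. The Rim101 pathway, which answers alkaline pH, had 5 rises and 1 fall among 18 members (median 0.33), and 6 and 1 with the length trend removed. RIM8, the arrestin-like protein of the sensing complex, stood at 124, 139 and 215 CPM against 35.5 CPM, 4.49-fold higher (edgeR adjusted p = 0.00207), and DFG16, a sensor, at 51.1, 59.9 and 69.8 CPM against 18.8 CPM (1.68). RIM101 itself, at 201, 303 and 258 CPM against 146 CPM, was not called (0.80, edgeR adjusted p = 0.127). MVB12, of the ESCRT complex, fell (-2.65). With total counts alone 1 osmotic stress target was lower.

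Chaperone and stress genes held more falls than rises. Over all features 22.1% fell and 18.6% rose. Of 25 chaperone genes 15 fell and 1 rose (median -1.01, and -1.46 with the length trend removed, where 18 fell), and 9 fell without replicate 2. SSA3, a stress-induced Hsp70, was the rise, from 8.14 CPM to 49, 38.9 and 87.4 CPM (2.84). HSP26, a small heat shock protein, stood at 23.3, 3.90 and 49.6 CPM against 231 CPM (-3.17), at -4.09 without replicate 3, and was not called by DESeq2 (adjusted p = 0.109) or with the length trend removed (0.0595). Of 20 general stress genes 7 fell and 1, HSP12, rose, with YGP1 at -2.70 and the polyubiquitin gene UBI4 at -2.37, with 4 lower without replicate 2 and 12 with the length trend removed. Of 33 proteasome genes 14 fell and 0 rose, but 4 fell without replicate 2, 8 without replicate 3, 6 with the length trend removed (2 rose) and 0 with total counts alone (10 rose). PRE7 (-1.90) and PRE4 (-1.60) led them. With total counts alone 7 chaperone and 2 general stress genes were lower.

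Metabolic lists other than glycolysis had fewer calls. Of 64 amino acid synthesis genes 17 fell and 3 rose, and 7, 2 and 4 rose without replicates 1, 2 and 3. Of 27 genes of sulfur assimilation 11 fell and 2 rose, and of 24 of ergosterol synthesis 5 fell and 1 rose. Over all features 22.1% fell and 18.6% rose, and the falls in ergosterol synthesis lay near that share. In a fit with the length trend removed 22, 11 and 7 genes of these lists fell and 3, 0 and 1 rose. For all features that fit gave 17.8% and 14.1%. SAM2, S-adenosylmethionine synthetase, stood at 29.6, 19.9 and 24.6 CPM against 359 CPM, 14.5-fold lower (edgeR adjusted p = 1.41e-06). MET2, MET1 and MET4 stood at -2.30, 1.29 and 1.12. MET2 was not called with total counts alone (-1.04), nor were MET1 (0.78) and MET4 (0.43) with the length trend removed, and MET4 was not called without replicate 2 (adjusted p = 0.0994). ERG28, a scaffold of sterol synthesis, fell (-3.70), ERG13 fell (-1.74, -0.48 with total counts alone), and HMG1, the HMG-CoA reductase, rose (1.87), but not with the length trend removed (0.84). GDH3 (-2.85) and ILV6 (-2.03) fell among amino acid genes, ILV6 not with total counts alone (-0.77), where 1, 2 and 1 genes of these 3 lists were lower.

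Of 17 phosphate starvation genes 9 fell and 2 rose, with PHO5, the secreted acid phosphatase, at 5.58, 11.5 and 5.88 CPM against 97.5 CPM (-3.67) beside the rise of PHO89, and 10 fell with the length trend removed. GIT1, a transporter of glycerophosphoinositol, was the other rise (1.94), not called without replicate 3 (adjusted p = 0.0896), with the length trend removed (0.0551) or by limma-voom (0.0672). Of 21 iron regulon genes 4 rose and 2 fell, beside 18.6% and 22.1% of all features. Without replicates 1, 2 and 3 in turn, 7, 5 and 4 rose, and with the length trend removed 2 rose and 2 fell. Among them rose FRE2, a ferric reductase, from 3.71 CPM to 21.2, 16.7 and 36.4 CPM (2.74) and FRE1 by 1.90, which was 1.20 without replicate 3 and not called with the length trend removed (adjusted p = 0.199). FIT2 (-2.76) and TIS11 (-2.35) fell, TIS11 not with total counts alone (-1.08), where 4 phosphate genes and 1 iron gene were lower.

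The nuclear pore and DNA repair lists, whose members are long, held more rises than falls. The cytosolic aminoacyl-tRNA synthetases (median span 2004 bases) had 0 rises and 0 falls, and 0 and 10 with the length trend removed. Chaperone genes (median span 1842 bases) had 1 rise and 15 falls, and 1 and 18 with that trend removed. What part length has in these lists was not tested. Over all features 18.6% rose and 22.1% fell, and 14.1% and 17.8% with the length trend removed. Of 33 nuclear pore genes, with a median span of 2235 bases, 17 rose and 1 fell (median 1.04), but 8 rose without replicate 2, and with the trend removed 2 rose and 4 fell (median 0.20). MLP1, a filament of the pore basket, stood at 208, 208 and 330 CPM against 58.6 CPM (2.09) and at 0.85 with the trend removed, where it was called (adjusted p = 0.0435). NUP159 stood at 1.95 and was not called with the trend removed (0.78), and POM33 fell (-1.84), but not with total counts alone (-0.58). Of 39 DNA repair genes 13 rose and 2 fell (median 0.79), and 3 and 4 with the trend removed (median 0.17). RAD9, the checkpoint adaptor, stood at 60.7, 70.1 and 129 CPM against 18.4 CPM (2.24, and 1.08 with the trend removed), and TEL1, the ATM homologue, at 2.12 and 0.74, the latter not called. RAD6, a ubiquitin-conjugating enzyme, fell (-1.82), but not with total counts alone (-0.55).

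Of 24 cell cycle regulators 5 rose and 5 fell, near the shares over all features (18.6% and 22.1%). Of 18 pheromone response genes 5 rose and 1 fell. Without the length trend 1 cell cycle gene rose and 3 fell, and 2 pheromone genes rose and 1 fell. In that fit 14.1% of all features rose and 17.8% fell. Without replicate 1, 8 pheromone genes rose, and 3 without replicate 2 or replicate 3. Of the cell cycle genes 3 rose without replicate 2 or 3. The transcription factors MBP1 (1.89) and FKH2 (1.39) rose, FKH2 not without replicate 3 (adjusted p = 0.0556) or with the trend removed (0.45). The S-phase cyclin CLB6 fell (-2.56) and CKS1 fell (-1.48), CKS1 not with the trend removed (-0.25) and neither with total counts alone. FUS2 (2.10), of cell fusion, and GPA1 (1.58), the G-protein subunit, rose, and AGA2 (-1.46), an agglutinin subunit, fell, with values of 0.05 once the trend was removed and -0.19 with total counts alone, neither called. FUS2 was not called with the trend removed either (adjusted p = 0.0528). In the fit of 7 libraries TIF4632, MET4, FRE1, MBP1, FKH2, GPA1, MLP1 and HXT3 were not called, with adjusted p of 0.106, 0.119, 0.123, 0.059, 0.151, 0.0504, 0.113 and 0.148.

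Of 18 cell wall mannoprotein genes 3 rose and 8 fell, of which 4 fell with total counts alone, and 3 rose and 5 fell with the length trend removed. Over all features 18.6% rose and 22.1% fell. CCW12, an abundant wall protein, stood at 3175, 4443 and 2851 CPM against 21917 CPM, 6.28-fold lower (edgeR adjusted p = 0.00012), while TIR4 rose from 1.44 CPM to 7.74, 9.70 and 15.6 CPM (2.94) and FLO11, the flocculin, stood at 3.38, a call lost without replicate 3 (adjusted p = 0.0605) and with the trend removed (0.112).

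**Figure D5:**
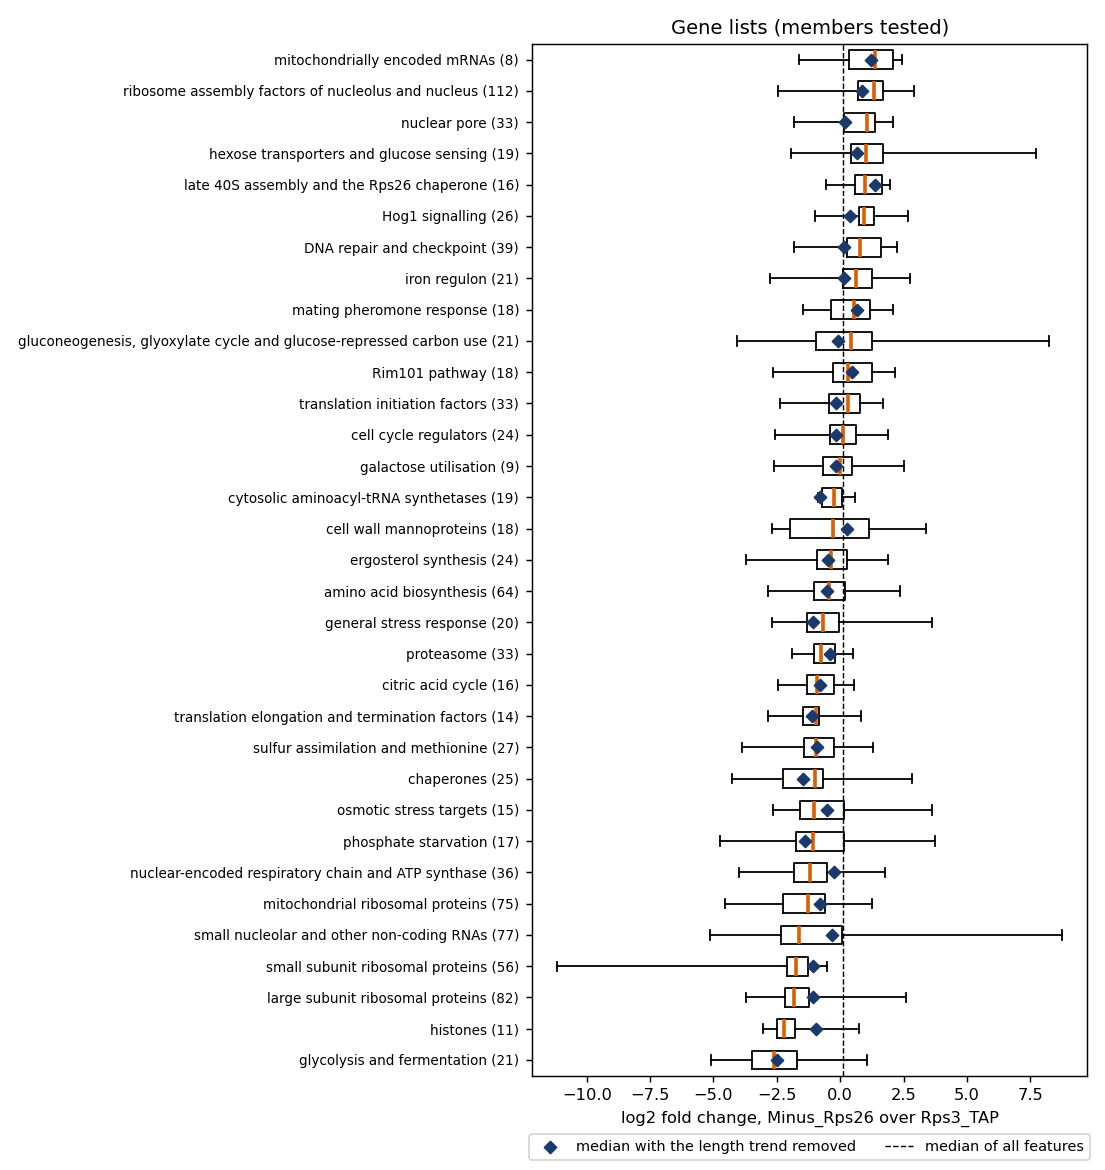
Log2 fold change of Minus_Rps26 over Rps3_TAP for the tested members of each list with 5 or more (box, middle quartiles; orange line, median; whiskers, lowest and highest member), with the median after removal of the length trend as a diamond and the median of all features, 0.12, as a dashed line. Glycolysis (median -2.63), histones and both ribosomal protein lists lie at the low end and ribosome assembly factors (1.33) near the high end; the highest whiskers are fitted values of genes with 0 counts in Rps3_TAP and depend on the prior count.

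Non-coding RNAs, which are not translated, were also measured in these eluates. Of 77 tested of 86 listed, most of them small nucleolar RNAs, 45 were lower and 4 higher in Minus_Rps26. Over all features 22.1% were lower and 18.6% higher. snR30, needed for processing of 18S rRNA, stood at 5115, 1525 and 1170 CPM against 86578 CPM (-5.06 ± 0.59, edgeR adjusted p = 1.03e-05), and snR84 at 258, 131 and 48.6 CPM against 5124 CPM (-5.13). Replicate 1 lay above the other 2 libraries of its group for both, and without it they stood at -5.98 and -5.80. snR68 and snR61 had 171 and 132 counts over the 3 libraries and 0 in Rps3_TAP, at least 7.61-fold and 5.88-fold higher. Their calls were not held in every setting, since snR61 was not called without replicate 3 (adjusted p = 0.0848) nor snR68 with 7 libraries (0.0684). Without the length trend 17 were lower and 8 higher, near the shares of 17.8% and 14.1% over all features. With total counts alone 17 were lower and 12 higher, where 6.03% and 57% of all features were. In the fit of 7 libraries the median of the list was -1.56 for Minus_Rps26 over Rps3_TAP and 0.48 for Plus_Rps26 over Rps3_TAP, which share that library.

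The title of the series asks about the sequence before the start codon. Over 5587 nuclear protein-coding genes with a deposited context, the 3405 genes with A at -3 had 18.3% called higher and 24.4% lower, and a median log2 fold change of 0.02. The 489 genes with C at -3 had 22.1% higher and 19.2% lower (median 0.31), the 1090 with G 18.9% and 19.0% (0.19), and the 603 with T 21.1% and 16.4% (0.26). Relative to all genes the medians at -3 were thus -0.10 for A, 0.19 for C, 0.08 for G and 0.14 for T, small beside the spread from -1.12 to 1.02 over length bins. With the length trend removed these became -0.06, 0.04, 0.04 and 0.15, so that C stood below T.

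At -4 the 834 genes with G had 20.7% called higher and 17.1% lower, at 0.07 relative to all, while C stood at -0.16, A at -0.04 and T at 0.15. With the length trend removed they stood at 0.05, -0.08, -0.04 and 0.08. At -2 the 750 genes with G stood at 0.12 relative to all, and at 0.11 with the trend removed. At -1 the medians by base ran from -0.07 for A to 0.09 for T. Ribosomal protein genes carry A at -3 in 84.1% of 138 cases, and without them the shift at A was -0.08 in place of -0.10. The contexts printed above are a few examples from called genes and carry no weight beside these medians.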

How the data were processed

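The libraries were made with a stranded total RNA kit after removal of ribosomal RNA, per the labels' protocols. The authors deposited raw counts per feature for each library. Per the submitters' processing notes, the aligner was TopHat2 2.0.9, the genome build sacCer3 and the comparison tools DESeq and DESeq2. How reads were counted, and on which strand, is not given in the sources used here. The authors' deposited table holds log2 fold changes and adjusted p-values, per the file headers, and a deposited sheet of normalized values holds a signal, the counts of a library times a constant, which was set beside the counts only. The lines at the end of each file, for unassigned reads, stayed out: they held 3.37% to 7.48% of reads in no feature and 0.148% to 1.69% ambiguous in these 4 libraries. Multiply aligned reads are listed as 0 in replicate 3 of Minus_Rps26 and as 11530659 to 18980582 in the other 3 libraries, and what differed in replicate 3 is not given in the sources used here.

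The test was edgeR 4.0.16 (R 4.3.3) on the 4 libraries, with trimmed-mean scaling (factors 1.24, 1.23 and 1.27 for Minus_Rps26 and 0.518 for Rps3_TAP), filterByExpr at its defaults and quasi-likelihood p-values adjusted by Benjamini-Hochberg over 5787 features, with a threshold of 0.05. It had 2 residual degrees of freedom, and the coefficient of biological variation was 28.1%. Standard errors are the absolute log2 fold change over the square root of F. Alternatives were DESeq2 1.42.0, limma-voom (limma 3.58.1), other scalings, no filter, nuclear protein-coding genes alone, all 7 libraries, each library's lowess trend on gene span removed as an offset, each Minus_Rps26 library left out and a fold of 2 as well. Both total counts of nuclear protein-coding genes and a fit with replicate 1 counted in place of replicate 3 were chosen after seeing the data. Tables and figures used Python 3.11.15. The fit was also run on simulated data, with 200 of 5787 features changed in each of 3 draws. It called 1.5% of the 2-fold and 81.7% of the 4-fold changes. The share changed there was far below the share called in the data, so these rates may not carry over. A gene not called is thus not shown to be unchanged. Of the feature names, 6052 were found in the RefSeq table of assembly R64 as symbols or locus tags and 45 as synonyms, and 244, of which 229 look like tRNAs, were unmatched. Intervals and floors cover counting error only.

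The 35 gene lists and the libraries compared were chosen with earlier results of these data known. Genes are named by rule: every engineered gene, auxotrophic marker and galactose gene; the 10 highest and 10 lowest log2 fold changes of called protein-coding genes, at 10 CPM or more on average, with Rps3_TAP outside the range of Minus_Rps26 and the engineered, marker and galactose genes left out; and for each list its 2 largest rises and 2 largest falls, or, with fewer than 2 calls, the 2 members of highest level. TSR2, HOG1, RIM101 and ASC1 were added for their roles. Members named to complete a count, and those so marked, were named after their values were seen. Some items are not reported here.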

Additional observations from a re-analysis of the deposited data

How the results depend on the processing

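Features called higher and lower, 1078 and 1281, became 3301 and 349 with total counts alone, 3080 and 426 with total counts of nuclear protein-coding genes, and 616 higher with all 7 libraries. With 4-fold gaps 123 features had every Minus_Rps26 library above Rps3_TAP and 305 below. The shortest length bin minus the longest was -2.13, and -0.05 with the length trend removed. The shift at A of -3 (-0.101) was -0.060 with that trend removed and -0.078 without ribosomal proteins. Relative to all features, the median of a list changed sign with the length trend removed for gluconeogenesis (-0.11), initiation factors (-0.20), cell cycle regulators (-0.23) and cell wall mannoproteins (0.22). Without replicate 1 it did so for galactose use (0.04) and mitochondrially encoded mRNAs (-0.56). That of cell cycle regulators lay near 0 (0.01) and was -0.03 by DESeq2, -0.05 with no filter, -0.01 without replicate 1 and -0.02 by DESeq2 with replicate 1 in place of replicate 3. Among genes named by rule or for their roles, these changed sign. With total counts alone they were GAL10 (0.00), GAL7 (0.89), GAL80 (1.25), GCY1 (0.57), ILS1 (0.91), KRS1 (1.26), YPD1 (0.25), RPL7A (0.49) and HOG1 (0.45). With nuclear protein-coding totals they were GAL7 (0.74), GAL80 (1.09), GCY1 (0.43), ILS1 (0.76), KRS1 (1.11), YPD1 (0.11), RPL7A (0.34) and HOG1 (0.30). With the length trend removed they were GAL2 (-0.10), GAL4 (-0.44), YPD1 (0.07) and AGA2 (0.05). KRS1 and GAL80 lay near 0, at 0.05 and 0.03 with 7 libraries and 0.15 and 0.16 without replicate 1 (GAL80 -0.17 without replicate 3), and KRS1 at 0.01 with no filter. Of list members named to complete a count, the sign changed with total counts alone for PDC5 (0.69), RPS0A (0.55), RPS25B (0.32), RPS27A (0.50), RPS6A (0.53), RPS7B (0.75) and CDC33 (0.03), and with the length trend removed for RPS25B (0.50), RPS27A (0.10) and SSK2 (-0.09). Leaving out 1 library gave 877 to 1407 higher and 1090 to 1434 lower. Causes were not tested. No paired analysis was possible because Rps3_TAP is a single library and shares fewer than 2 replicate numbers with Minus_Rps26. With 1 library the spread of Rps3_TAP is unknown, and a gene with few counts there, such as URA3 with 1, has a wide interval.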

Other observations

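Genes of arginine metabolism, a group put together after the values were seen, moved in opposite directions. CPA1, of carbamoyl phosphate synthesis for arginine, stood at 192, 759 and 460 CPM in replicates 1, 2 and 3 of Minus_Rps26 against 92.5 CPM in Rps3_TAP. Replicate 1 lay nearest to Rps3_TAP. Its log2 fold change was 2.35 ± 0.63 (edgeR adjusted p = 0.00737), but it was not called with all 7 libraries (adjusted p = 0.0544). YOR302W, the upstream reading frame on the CPA1 mRNA that arginine acts through, stood at 15.6, 57.6 and 34.6 CPM against 2.63 CPM (3.77), and the arginine permease gene CAN1 at 1.72. CAR1, arginase, stood at 54.8, 21 and 28.7 CPM against 443 CPM (-3.67 ± 0.43, edgeR adjusted p = 9.18e-06) beside CAR2 (-4.53), the next step of arginine breakdown. ARG1, of arginine synthesis, was lower too (-1.33), but neither ARG1 nor CAN1 was called with the length trend removed (adjusted p = 0.0618 and 0.0835), and ARG3, ARG4 and ARG8 were not called. Of the 10 subunits of the Dam1 kinetochore ring, also grouped after the values were seen, 5 fell, DAD1 (-4.81), DAD4 (-2.37), DAD3 (-1.75), SPC19 (-1.51) and SPC34 (-1.19), and with the length trend removed only DAD1 remained lower (-3.35) while DUO1 (1.40), DAD2 (1.69) and HSK3 (1.51) were called higher. Of 6 aryl-alcohol dehydrogenase genes tested AAD3 (4.67) and AAD10 (2.24) rose.

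In the authors' deposited sheet of normalized values for this comparison, the column named as the third eluate equals the column of the first in all 5898 rows. Each holds the counts of Minus_Rps26 replicate 1 times 0.949, and no column holds replicate 3. The columns of the first and second eluate are equal in 168 rows. The authors' deposited table calls 1266 genes higher and 1402 lower among 5734 with a value. Its log2 fold changes differed from a DESeq2 fit with replicate 1 counted in place of replicate 3 by a median absolute value of 0.0348, and from a DESeq2 fit of the 3 different libraries by 0.158. Of its 2668 calls, 354 were not made by DESeq2 with the 3 libraries. NCE103 stood at 0.85 and HSP12 at 1.20 in the authors' deposited table, against 3.63 and 3.62 here. The DESeq2 fit with replicate 1 counted in place of replicate 3 gave 3.19 and 3.04, far above the authors' values. What lies behind that difference was not tested. Of the 1078 and 1281 features called higher and lower here, 1027 and 1203 were called in the same direction in the authors' deposited table.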
